A study of Homo sapiens with 9 samples.

Results

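The nuclear-encoded respiratory chain subunits were described across 3 groups of TCam-2 cells, a human testicular seminoma line. Members were the rows of the deposited expression table whose symbol begins with NDUFA, NDUFB, NDUFC, NDUFS or NDUFV and a digit, with UQCR, with COX4 to COX8, or with ATP5, leaving out pseudogenes and symbols with a hyphen. This rule found 91 of the 63856 rows. Of these, 83 lie on the primary chromosomes, namely 38 for complex I, 9 for complex III, 17 for complex IV and 19 for complex V, and the other 8 are copies on alternate scaffolds with 0 counts in every sample. After the filter on low counts, 75 members were tested among 18452 genes: 37 of complex I, 9 of complex III, 12 of complex IV and 17 of complex V.

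Each group had 3 samples. WT cells were unmodified. NC cells received the px335_G2P vector, which also carries GFP, with guide RNAs that match no human sequence. ESX1 cells received px335_G2P vectors with guide RNAs against the promoter region of ESX1 together with PB-TRE-dCas9-VPR, a doxycycline-inducible activator made of catalytically dead Cas9 fused to the VPR transactivator. Selection with puromycin and doxycycline was described for the transfected cells, and whether NC also received the dCas9-VPR vector is not given in the sources used here. All samples come from 1 cell line, the study counted only part of the transfected cells as GFP-positive, and in NC against WT the transfection, the selection and the vector cannot be told apart. The replicates were described as biological replicates. In such bulk RNA, fewer cells of a kind and less RNA per cell cannot be told apart.

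Total counts ranged from 5212804 in ESX1 replicate 3, the shallowest library, to 10644408. The targeted gene ESX1 stood at 3.60, 4.08 and 3.13 CPM (counts scaled to library size, normalized by trimmed mean of M-values) in WT, 3.63, 2.89 and 3.46 in NC and 57.0, 55.7 and 31.4 in ESX1, and it was higher in ESX1 than in NC (log2 fold change 3.85 ± 0.24 SE, adjusted p = 4.48e-08). The 7 seminoma markers (POU5F1, NANOG, SOX17, PRDM1, TFAP2C, KIT and PDPN) were all expressed. Their summed level was 3352 to 4047 CPM in WT, 2540 to 2729 in NC and 1423 to 1726 in ESX1, and 6 of 7 were lower in NC than in WT, 5 of 7 lower in ESX1 than in NC and 6 of 7 lower in ESX1 than in WT. The shares of all tested genes called lower in these comparisons were 10.3%, 2.37% and 15.8%. The 12 markers of other cell types summed to 18.5 to 35.6 CPM in WT, 39.8 to 46.1 in NC and 29.7 to 62.0 in ESX1. Of these, HSD3B2 was at 0 in all samples, PTPRC, HBA1, CYP17A1 and DCN did not exceed 0.739 CPM in any, COL1A1 and SOX2 were higher in NC than in WT (log2 fold change 2.19 and 1.23), COL1A1 was also higher in ESX1 than in WT, and SOX9 was higher in ESX1 than in NC (1.83). The call of SOX2 was lost without NC replicate 2 or 3 or WT replicate 3 (with adjusted p from 0.0781 to 0.0911), and that of SOX9 without ESX1 replicate 1 or NC replicate 2 (with adjusted p from 0.0671 to 0.0736). Of the 12 markers of other cell types, 6 passed the filter on low counts. Among these 6, 2 were higher in NC than in WT, 1 in ESX1 than in NC and 1 in ESX1 than in WT. The shares of all tested genes called higher in these comparisons were 6.82%, 1.88% and 12.9%. In every comparison 0 of the 6 were lower. The part of these marker changes in the results below was not tested.

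The respiratory chain sits in the inner mitochondrial membrane. Complexes I, III and IV pass electrons from NADH to oxygen and pump protons, and complex V, the ATP synthase, uses the proton gradient to make ATP. Most of their subunits are encoded in the nucleus and are assembled with a small set of subunits encoded by mitochondrial DNA. Many of the nuclear genes are known to be bound at their promoters by NRF1, by the ETS factor GABPA (also called NRF2) and by YY1.

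Promoters were taken from RefSeq (GRCh38.p14, 250 bases before to 50 after each start) and 66 of the 83 members had one. The motif searched for NRF1 was GCGCANGCG, for ETS factors such as GABPA CCGGAAG, for YY1 AAGATGGCG and for the estrogen-related receptor ESRRA TCAAGGTCA, each on both strands, where a match on one strand may overlap a match on the other. The NRF1 letters were found for 20 of the 66 members (30.3%) against 9.02% of all 27305 genes with a promoter in the table. The ETS letters were found for 18 members (27.3%) against 12.2% of all genes, and the YY1 letters for 8 members (12.1%) against 2.14%. The 27305 genes were counted whether or not they were expressed here, whereas 61 of the 66 members passed the filter on low counts. The 2 sets therefore differ in expression as well. None of the 66 members held the ESRRA letters, which 0.432% of all genes hold. Stretches from 100 bases before to 30 after the start are shown for 5 members that were lower by at least 2-fold in NC than in WT and hold a motif (UQCRH, COX6A1, ATP5I, NDUFB4 and NDUFB8), for UQCRC1, the member lower in ESX1 than in NC, for NDUFS7, which holds 2 motifs, and for COX7C, which was lower by at least 2-fold and holds none. NDUFA4, COX7A2 and COX7B, not shown, were also lower by at least 2-fold in NC and hold none, and ATP5J2 had no promoter entry. Capitals mark the matches, ETS in UQCRH and COX6A1, NRF1 and ETS in ATP5I, NRF1 in NDUFB4, YY1 in NDUFB8, and NRF1 and YY1 in UQCRC1 and NDUFS7, where the YY1 match of UQCRC1 runs past the end of the stretch.
UQCRH: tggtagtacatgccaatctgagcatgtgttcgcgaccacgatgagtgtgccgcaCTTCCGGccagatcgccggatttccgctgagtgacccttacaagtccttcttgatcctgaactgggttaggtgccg
COX6A1: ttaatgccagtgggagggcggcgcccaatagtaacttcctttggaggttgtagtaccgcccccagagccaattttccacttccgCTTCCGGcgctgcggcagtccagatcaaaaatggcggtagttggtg
ATP5I: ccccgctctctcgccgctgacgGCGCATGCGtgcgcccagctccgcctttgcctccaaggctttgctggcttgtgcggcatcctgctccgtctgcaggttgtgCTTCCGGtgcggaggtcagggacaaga
NDUFB4: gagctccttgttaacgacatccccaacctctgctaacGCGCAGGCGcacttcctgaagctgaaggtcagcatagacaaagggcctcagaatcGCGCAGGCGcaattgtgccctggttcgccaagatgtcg
NDUFB8: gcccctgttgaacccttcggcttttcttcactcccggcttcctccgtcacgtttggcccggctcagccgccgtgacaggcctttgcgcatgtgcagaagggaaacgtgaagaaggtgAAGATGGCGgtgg
UQCRC1: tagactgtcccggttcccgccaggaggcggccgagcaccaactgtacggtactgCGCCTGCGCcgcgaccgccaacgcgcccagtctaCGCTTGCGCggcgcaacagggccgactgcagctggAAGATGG
NDUFS7: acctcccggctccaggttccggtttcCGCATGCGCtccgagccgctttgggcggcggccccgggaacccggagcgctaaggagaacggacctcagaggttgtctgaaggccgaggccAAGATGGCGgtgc
COX7C: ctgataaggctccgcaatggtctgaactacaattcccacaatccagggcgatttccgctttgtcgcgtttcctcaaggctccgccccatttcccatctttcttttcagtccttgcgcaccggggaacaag
These stretches lie, for UQCRH at chr1:46303598-46303727 on the plus strand, for COX6A1 at chr12:120438013-120438142 on the plus strand, for ATP5I at chr4:674247-674376 on the minus strand, for NDUFB4 at chr3:120596236-120596365 on the plus strand, for NDUFB8 at chr10:100529842-100529971 on the minus strand, for UQCRC1 at chr3:48609617-48609746 on the minus strand, for NDUFS7 at chr19:1383807-1383936 on the plus strand and for COX7C at chr5:86617841-86617970 on the plus strand. Members lower in NC than in WT were found both with and without the NRF1, ETS and YY1 letters. Of 19 tested members with the NRF1 letters 8 were lower (median log2 fold change -0.35), and of 42 without them 27 were lower (-0.62). With the ETS letters 11 of 18 were lower (-0.66), and without them 24 of 43 (-0.46). With the YY1 letters 3 of 8 were lower (-0.35), and without them 32 of 53 (-0.61). These are counts with no test, and a match is not a measured binding site.

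The first comparison, NC against WT, shows what differs between cells carrying non-targeting guides and unmodified cells. Subunit transcripts of each of the 4 complexes were among the genes lower in NC. Of the 75 tested members, 43 were lower and 0 were higher (edgeR quasi-likelihood test, Benjamini-Hochberg adjusted p below 0.05 over all 18452 genes, which holds for every adjusted p below). At an unadjusted p below 0.05, 1 member was higher, and DESeq2 called 0 higher. Over all genes, 10.3% were lower and 6.82% were higher. Among the 43, 10 were lower by at least 2-fold, where 2.15% of all genes were. The median log2 fold change of the members was -0.61, or 0.655 times the WT level, against 0.01 over all genes. Members are abundant, and among the 9743 genes with a mean of at least 10 CPM the share of lower genes was 17.1%, against 59.2% of the 71 members above that level. Every NC sample lay below every WT sample in 56 of the 75 members and in 3694 of all 18452 genes.

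By complex, 16 of 37 members of complex I, 6 of 9 of complex III, 9 of 12 of complex IV and 12 of 17 of complex V were lower in NC. The median log2 fold changes in NC against WT were -0.34 for complex I, -0.61 for complex III, -0.73 for complex IV and -0.64 for complex V. Complexes III and IV had no member with a fold change above 0, complex I had 8 of 37 and complex V had 2 of 17, and none of these 10 passed the test. The 2 of complex V were ATP5D and ATP5S (log2 fold change 0.58 and 0.25). ATP5S and ATP5SL match the symbol rule and are counted in complex V, but are not structural subunits of the isolated complex. The difference between complexes was not tested.

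**Figure D1:**
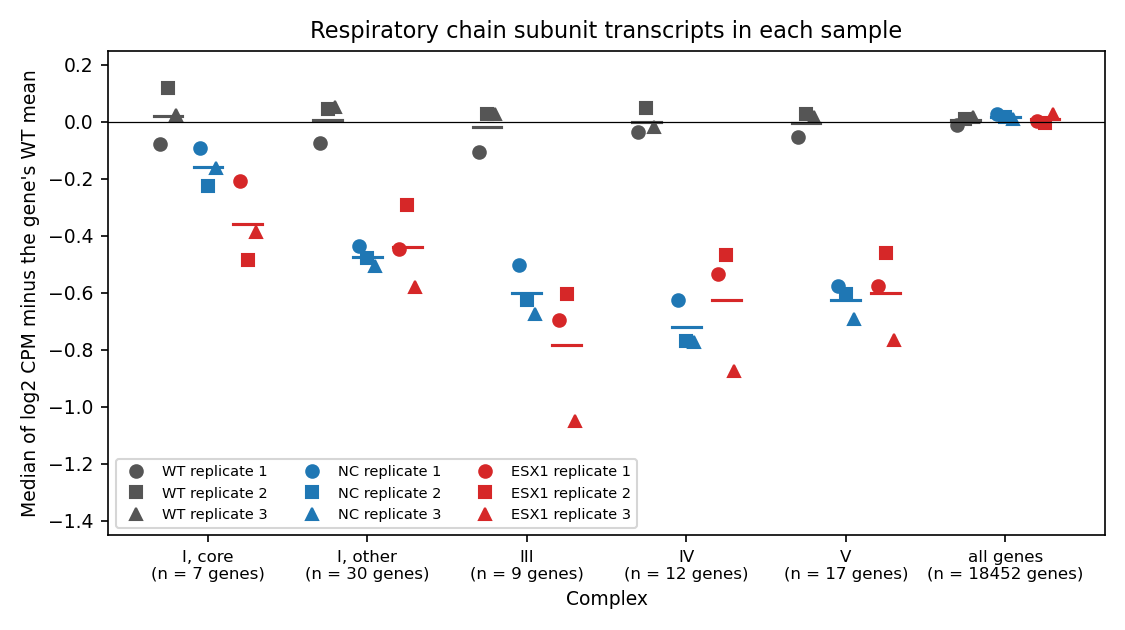
Median over the tested members of each complex of log2 CPM minus the gene's WT mean (y axis, log2), for each of the 9 samples; horizontal bars are the means of 3 samples. NC and ESX1 samples sit below all WT samples in each class of members. In NC the 7 core subunits of complex I lie nearest to WT. This does not hold in ESX1 replicate 2, where their median (-0.49) is below that of the other complex I members (-0.29). The medians over all 18452 genes stay near 0.

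The sum over the 75 members was 6258, 6769 and 6727 CPM in WT, 4539, 4334 and 4395 in NC and 4629, 4692 and 3852 in ESX1. All NC and ESX1 samples lay below all WT samples, and ESX1 replicate 3 was the lowest of the 9. The summed level in NC was 67.2% of WT for all members, 73.4% for complex I, 64.98% for complex III, 60.4% for complex IV and 66.0% for complex V. In ESX1 it was 66.7% of WT for all members, 73.0% for complex I, 58.9% for complex III, 65.9% for complex IV and 64.9% for complex V.

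Complex I oxidises NADH and reduces ubiquinone. Its catalytic core holds 7 nuclear-encoded subunits, among them those that carry the flavin and the iron-sulfur clusters, and the remaining nuclear members are accessory subunits. Of the 7 core genes, 1 was lower in NC than in WT, NDUFS8, an iron-sulfur subunit near the quinone site. This share of 14.3% is close to the 10.3% of all genes. NDUFS8 stood at 88.8, 107 and 86.9 CPM in WT, 58.3, 53.9 and 73.7 in NC and 69.7, 50.1 and 38.1 in ESX1. The log2 fold change of NDUFS8 was -0.60 ± 0.18 (SE, adjusted p = 0.025) in NC and -0.83 ± 0.18 (SE, adjusted p = 0.00209) in ESX1 against WT, the call in NC being lost without NC replicate 1 or 2 or WT replicate 2 (with adjusted p from 0.106 to 0.129). The other 6 core genes had log2 fold changes from -0.23 to 0.32 in NC against WT, and their median with NDUFS8 was -0.17. NDUFS1, which carries several of the iron-sulfur clusters, was at 164, 163 and 153 CPM in WT, 143, 137 and 143 in NC and 136, 151 and 127 in ESX1. NDUFV1, which binds NADH and the flavin, was at 141, 136 and 143 CPM in WT, 155, 120.5 and 129 in NC and 112, 99.995 and 86.4 in ESX1. Levels of NDUFV1 overlapped between NC and WT (log2 fold change -0.06 ± 0.12 SE, adjusted p = 0.793), whereas all 3 ESX1 samples lay below both (against WT -0.49 ± 0.12 SE, adjusted p = 0.00692, and against NC -0.43 ± 0.12 SE, adjusted p = 0.0589). For NDUFV1 the call against WT was lost without ESX1 replicate 3 (with adjusted p = 0.0551), and without ESX1 replicate 1 it passed as lower in ESX1 than in NC (adjusted p = 0.0317). NDUFS1, NDUFV1 and NDUFS8 were picked with their values known.

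Among the 30 accessory members of complex I, 15 were lower in NC than in WT, with a median log2 fold change of -0.43. NDUFA4 bears a complex I name and is counted in complex I by the symbol rule, but is known as a subunit of complex IV. It had the largest fall under these symbols. NDUFA4 (chr7:10931951-10940256, minus strand, GRCh38) stood at 214, 239 and 207 CPM in WT, 84.0, 97.4 and 99.3 in NC and 106, 143 and 106 in ESX1. NC and ESX1 samples lay below all WT samples, and the log2 fold change was -1.23 ± 0.13 (SE, adjusted p = 1.72e-05) in NC and -0.89 ± 0.13 (SE, adjusted p = 7.91e-05) in ESX1 against WT. NDUFB4 (chr3:120596309-120602500, plus strand), an accessory subunit of the membrane arm whose promoter holds the NRF1 letters, stood at 48.1, 53.8 and 52.9 CPM in WT, 23.9, 25.7 and 24.9 in NC and 31.8, 34.2 and 29.4 in ESX1. The 3 groups did not overlap, with WT highest and NC lowest (NC against WT -1.05 ± 0.13 SE, adjusted p = 5.88e-05, and ESX1 against WT -0.69 ± 0.13 SE, adjusted p = 7.29e-04), while ESX1 against NC was 0.36 ± 0.13 (SE, adjusted p = 0.162). NDUFB8 (chr10:100523740-100530000, minus strand), another membrane arm subunit, stood at 18.8, 21.3 and 24.5 CPM in WT, 10.7, 12.9 and 8.35 in NC and 13.3, 14.1 and 9.79 in ESX1, and 48.5% of its exon bases are shared with other annotated genes. Its log2 fold change against WT was -1.02 ± 0.20 (SE, adjusted p = 0.00249) in NC and -0.78 ± 0.20 (SE, adjusted p = 0.00814) in ESX1, and the second call was lost without ESX1 replicate 3 (with adjusted p = 0.0508). NDUFB3, a small membrane arm subunit, was lower in both groups, at 51.9, 55.1 and 43.2 CPM in WT, 29.96, 27.7 and 28.3 in NC and 24.8, 32.7 and 26.4 in ESX1 (log2 fold change against WT -0.80 and -0.83). NDUFS5, the member of complex I with the most counts per kilobase of exon in WT (239 CPM per kb), was at 122, 131 and 139 CPM in WT, 87.5, 80.1 and 80.7 in NC and 89.8, 101 and 63.0 in ESX1, lower in NC (-0.66 ± 0.14 SE, adjusted p = 0.00382) and in ESX1 (-0.62 ± 0.14 SE, adjusted p = 0.0031).

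**Figure D2:**
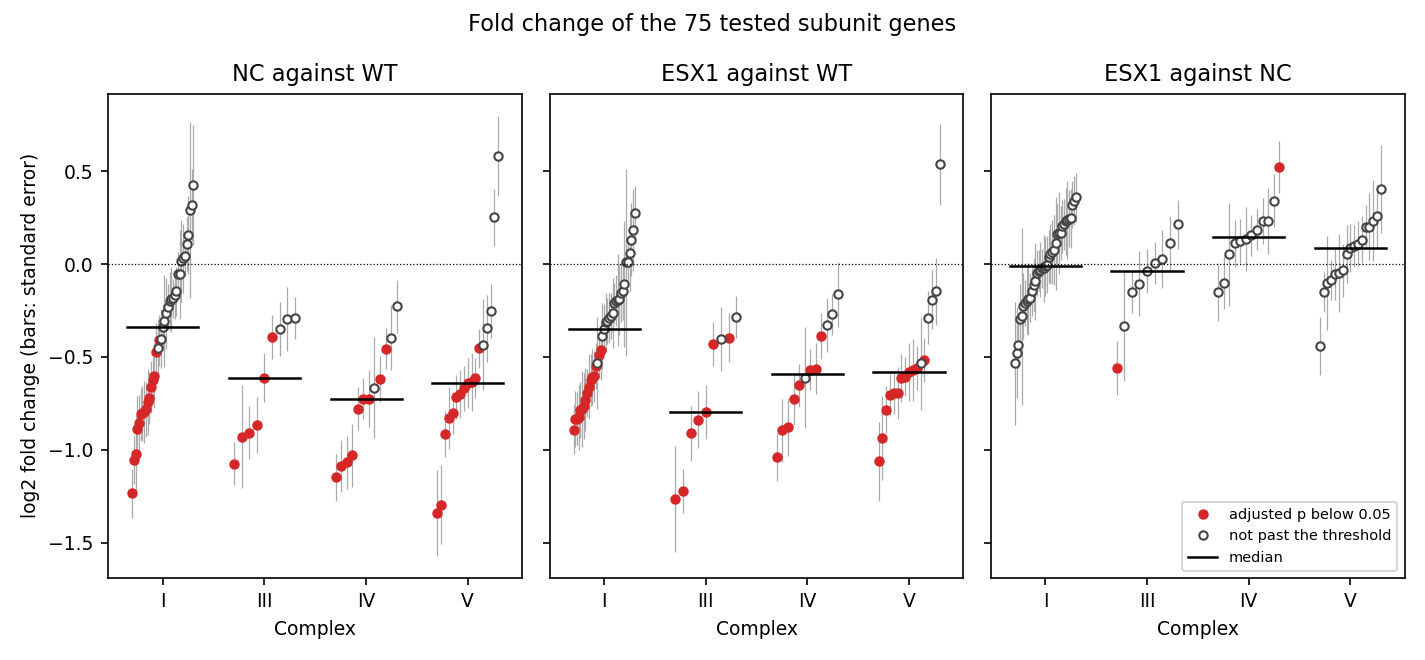
log2 fold change of each of the 75 tested members by complex, in NC against WT, ESX1 against WT and ESX1 against NC; bars are standard errors, filled points passed adjusted p below 0.05 and lines are medians. Both comparisons with WT lie mostly below 0 with 43 filled points each, and ESX1 against NC is centred near 0 (median 0.05) with 2.

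Complex III passes electrons from ubiquinol to cytochrome c. Its 3 core members under the rule are UQCRC1 and UQCRC2, the large matrix-facing subunits, and UQCRFS1, the Rieske iron-sulfur protein. UQCRC1 was at 236, 233 and 227 CPM in WT, 199, 169 and 177 in NC and 143, 137 and 88.3 in ESX1. WT, NC and ESX1 did not overlap, in that order from high to low, and the log2 fold change was -0.35 ± 0.15 (SE, adjusted p = 0.109) in NC against WT, -0.56 ± 0.15 (SE, adjusted p = 0.038) in ESX1 against NC and -0.91 ± 0.15 (SE, adjusted p = 2.01e-04) in ESX1 against WT. Without ESX1 replicate 3, UQCRC1 also passed as lower in NC than in WT (adjusted p = 0.0326). UQCRC2 was lower in NC than in WT (-0.39 ± 0.12 SE, adjusted p = 0.0283), a call lost without NC replicate 1, 2 or 3 or WT replicate 2 or 3 (with adjusted p from 0.0715 to 0.125), and UQCRFS1 was at -0.29 with an adjusted p of 0.0859. The 6 members outside the core had a median log2 fold change of -0.89 in NC, with a range from -1.07 to -0.30, and 5 were lower. The median over the 3 core members was -0.35, and the difference was not tested. The 6 include both UQCRH and its copy UQCRHL, which are not independent. UQCRH (chr1:46303631-46316776, plus strand), the hinge protein that contacts cytochrome c1, had the most counts per kilobase in WT within complex III (203 CPM per kb). UQCRH stood at 254, 291 and 314 CPM in WT, 134, 141 and 134 in NC and 123, 135 and 109.9 in ESX1, so that NC and ESX1 were each under every WT sample (NC against WT -1.07 ± 0.12 SE, adjusted p = 1.80e-05, and ESX1 against WT -1.22 ± 0.12 SE, adjusted p = 9.77e-07, and ESX1 against NC -0.15 ± 0.12 SE, adjusted p = 0.597). UQCRHL (chr1:15807169-15809348, minus strand), an intronless copy of UQCRH whose reads cannot be fully separated from those of its parent, was at 9.17, 11.2 and 14.4 CPM in WT, 7.67, 6.97 and 3.66 in NC and 5.37, 5.03 and 3.88 in ESX1. Its log2 fold change was -0.93 ± 0.28 (SE, adjusted p = 0.0281) in NC and -1.26 ± 0.29 (SE, adjusted p = 0.00315) in ESX1 against WT, and the call in NC was lost without NC replicate 2 or 3 or WT replicate 2 or 3 (with adjusted p from 0.0581 to 0.147).

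Complex IV, cytochrome c oxidase, has its catalytic subunits in mitochondrial DNA, and the nuclear members surround them. All 12 tested members had a fold change below 0 in NC against WT, and 9 passed the test. COX7C (chr5:86617904-86620962, plus strand), a small membrane subunit, was at 183, 233 and 239 CPM in WT, 97.3, 95.5 and 103 in NC and 114, 113 and 90.7 in ESX1 (NC against WT -1.15 ± 0.13 SE, adjusted p = 2.46e-05, and ESX1 against WT -1.04 ± 0.13 SE, adjusted p = 1.48e-05). COX6A1 (chr12:120438090-120440742, plus strand) was at 61.4, 71.6 and 65.5 CPM in WT, 28.6, 31.7 and 33.1 in NC and 49.2, 48.4 and 35.8 in ESX1. The COX6A1 groups did not overlap, with ESX1 between WT and NC (NC against WT -1.09 ± 0.14 SE, adjusted p = 8.90e-05, and ESX1 against WT -0.56 ± 0.14 SE, adjusted p = 0.00563, and ESX1 against NC 0.52 ± 0.14 SE, adjusted p = 0.0446). COX7B (chrX:77899438-77907373, plus strand) was at 76.0, 79.6 and 67.9 CPM in WT, 34.8, 34.7 and 36.9 in NC and 45.8, 52.8 and 35.5 in ESX1 (NC against WT -1.07 ± 0.14 SE, adjusted p = 1.00e-04, and ESX1 against WT -0.73 ± 0.14 SE, adjusted p = 8.93e-04). COX7A2 (chr6:75237675-75250323, minus strand) was at 53.5, 83.2 and 62.4 CPM in WT, 26.8, 32.8 and 37.7 in NC and 33.6, 40.1 and 32.9 in ESX1 (NC against WT -1.03 ± 0.17 SE, adjusted p = 5.49e-04, and ESX1 against WT -0.89 ± 0.17 SE, adjusted p = 7.70e-04). In each of these 3 genes NC and ESX1 were below all WT samples. COX8A, with the most counts per kilobase of complex IV in WT (146 CPM per kb), was lower in NC (-0.72 ± 0.15 SE, adjusted p = 0.00394) and in ESX1 (-0.88 ± 0.16 SE, adjusted p = 4.73e-04). Another annotated gene shares 34.5% of the exon bases of COX8A. COX4I1 was one of the 3 members of complex IV not called in NC, at 126, 153 and 154 CPM in WT, 146, 105 and 119 in NC and 135, 111 and 97.5 in ESX1 (log2 fold change -0.23 ± 0.14 SE, adjusted p = 0.3), the others being COX5A and COX7A1.

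**Figure D3:**
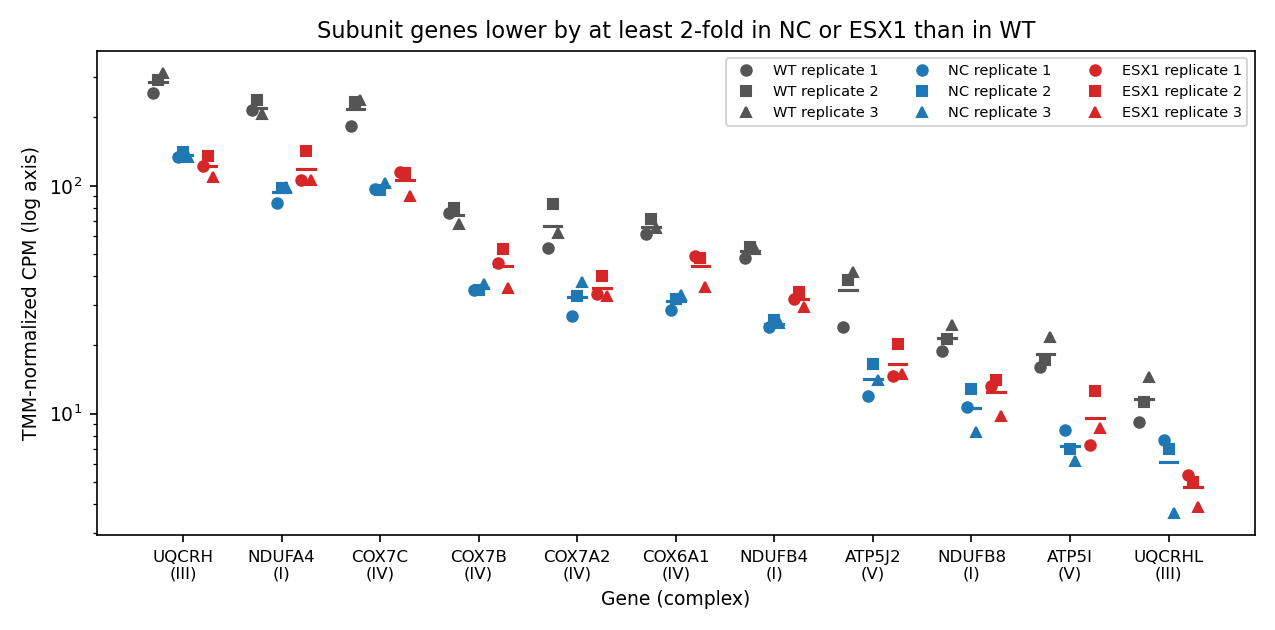
TMM-normalized CPM on a log axis for the 11 members lower by at least 2-fold at adjusted p below 0.05 in NC or in ESX1 against WT; points are samples and bars are group means. For each gene all 3 WT samples lie above all 6 NC and ESX1 samples, and for UQCRH the WT samples span 254 to 314 CPM against 109.9 to 141 in the other 6. These genes were chosen for being lower than in WT, so the choice alone favours this separation.

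In complex V the F1 head carries the catalytic sites, and 4 of its 5 members were lower in NC. ATP5B, the catalytic beta subunit, had the most counts per kilobase of all members in WT (269 CPM per kb) and stood at 600.5, 634 and 640.3 CPM in WT, 466, 444 and 458 in NC and 469, 402 and 361 in ESX1. ATP5B was lower in NC (-0.45 ± 0.11 SE, adjusted p = 0.00698) and in ESX1 (-0.61 ± 0.11 SE, adjusted p = 4.06e-04), the call in NC being lost without NC replicate 2 (with adjusted p = 0.0503). ATP5A1 (alpha), ATP5C1 (gamma) and ATP5E (epsilon) were also lower in NC, with log2 fold changes of -0.61, -0.91 and -0.67. ATP5D, the delta subunit, was at 12.9, 13.99 and 13.5 CPM in WT, 24.8, 19.0 and 16.7 in NC and 25.3, 13.9 and 19.2 in ESX1. Its log2 fold change in NC was 0.58 ± 0.22 (SE, adjusted p = 0.072) and in ESX1 0.54 ± 0.22 (SE, adjusted p = 0.0745) against WT, neither past the threshold, with 95% intervals of 0.13 to 1.04 and 0.08 to 0.99. ATP5D was picked out with its values known. Without ESX1 replicate 1 or 2 it passed as higher in NC (adjusted p from 0.0377 to 0.0398), and without ESX1 replicate 2 also in ESX1 (adjusted p = 0.0127).

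The proton-translocating c ring of the synthase is made of 1 protein encoded by 3 genes, and all 3 were lower. ATP5G1 was at 37.99, 42.7 and 33.6 CPM in WT, 27.2, 24.9 and 21.5 in NC and 28.3, 25.3 and 22.4 in ESX1. ATP5G2 was at 63.7, 87.2 and 94.8 CPM in WT, 54.6, 53.1 and 49.9 in NC and 48.8, 49.998 and 53.2 in ESX1. ATP5G3 was at 134, 131 and 122 CPM in WT, 71.8, 73.6 and 76.5 in NC and 79.1, 88.4 and 69.5 in ESX1. Every NC and ESX1 sample was below every WT sample for each of the 3 genes. The log2 fold changes in NC against WT were -0.63 ± 0.15 (SE, adjusted p = 0.00931) for ATP5G1, -0.64 ± 0.14 (SE, adjusted p = 0.00393) for ATP5G2 and -0.80 ± 0.11 (SE, adjusted p = 1.62e-04) for ATP5G3. In ESX1 against WT they were -0.58 ± 0.16 (SE, adjusted p = 0.00969), -0.69 ± 0.14 (SE, adjusted p = 0.00112) and -0.71 ± 0.11 (SE, adjusted p = 1.80e-04). The calls of ATP5G1 were lost without NC replicate 3 or WT replicate 2 (with adjusted p from 0.0564 to 0.0705) in NC and without ESX1 replicate 3 or WT replicate 2 (with adjusted p from 0.0525 to 0.0547) in ESX1. ATP5I and ATP5J2 encode the small e and f subunits of the membrane part, where synthase dimers form, and had the largest falls of complex V. ATP5I (chr4:672436-674338, minus strand) was at 16.0, 17.2 and 21.6 CPM in WT, 8.4998, 6.97 and 6.21 in NC and 7.30, 12.6 and 8.68 in ESX1 (NC against WT -1.34 ± 0.23 SE, adjusted p = 7.82e-04, and ESX1 against WT -0.94 ± 0.23 SE, adjusted p = 0.00512), with 61.6% of its exon bases shared with MYL5. ATP5J2 (chr7:99448475-99466331, minus strand) was at 23.9, 38.8 and 41.7 CPM in WT, 11.9, 16.5 and 14.05 in NC and 14.6, 20.1 and 15.0 in ESX1 (NC against WT -1.30 ± 0.21 SE, adjusted p = 5.57e-04, and ESX1 against WT -1.06 ± 0.21 SE, adjusted p = 0.00122). In both genes every NC and ESX1 sample was below every WT sample. ATP5L, the g subunit, was lower in NC (-0.83 ± 0.17 SE, adjusted p = 0.0027) and in ESX1 (-0.57 ± 0.17 SE, adjusted p = 0.0165), the second call being lost without ESX1 replicate 3 or WT replicate 2 (with adjusted p from 0.0855 to 0.0911).

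Several subunits have a second gene, some of them known for use in other tissues, and most of these copies were near 0 in TCam-2 cells. NDUFA4L2, COX4I2, COX6A2, COX6B2, ATP5J2LP and ATP5L2 were below the filter in all groups, with single samples between 0 and 2.33 CPM, and COX7B2 and COX8C had 0 counts in all 9 libraries. In WT the expressed copy exceeded the other per kilobase of exon in each pair: COX4I1 stood at 30.1 CPM per kb and COX4I2 at 0, COX6A1 at 49.2 and COX6A2 at 0.0898, and COX6B1 at 101 and COX6B2 at 0.0492. COX7A1, the heart and muscle form, passed the filter, as did UQCRHL described above, and was at 7.75, 6.85 and 5.75 CPM in WT, 4.66, 4.07 and 4.07 in NC and 4.36, 5.53 and 3.14 in ESX1, or 6.74 CPM per kb in WT against 34.5 for COX7A2 and 20.04 for COX7A2L, which is not a structural subunit of the isolated enzyme. COX7A1 was at a log2 fold change of -0.66 ± 0.27 (SE, adjusted p = 0.1) in NC against WT. COX7A2L was lower in NC (-0.46 ± 0.11 SE, adjusted p = 0.00888, lost without NC replicate 1 or 3 or WT replicate 2 with adjusted p from 0.0504 to 0.0641) and was at -0.27 ± 0.11 (SE, adjusted p = 0.0751) in ESX1 against WT. COX6B1 was lower in both, at -0.73 in NC and -0.57 in ESX1.

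ESX1 against NC is the comparison in which both groups were transfected, and it addresses what the ESX1-directed guides, and the activator vector if NC did not receive it, add. Of the 75 members, 1 was higher and 1 was lower, where 1.88% of all genes were higher and 2.37% were lower. At a fold change of at least 2, 0 members were higher and 0 were lower, against 1.08% and 0.699% of all genes. The median log2 fold change over members was 0.05, and by complex it was -0.01 for complex I, -0.04 for III, 0.15 for IV and 0.09 for V. Within complex I the median was -0.19 over the 7 core members, all 7 below 0, and 0.06 over the other 30. In both parts 0 members passed the test, and the difference between them was not tested. The higher member was COX6A1 and the lower one was UQCRC1, with the values given above. The call of COX6A1 was lost without ESX1 replicate 1 or 2, NC replicate 1, 2 or 3 or WT replicate 2 or 3 (with adjusted p from 0.0516 to 0.189), and that of UQCRC1 without ESX1 replicate 3, NC replicate 1, 2 or 3 or WT replicate 2 (with adjusted p from 0.0554 to 0.17). For the 10 members that fell by at least 2-fold in NC, the 95% interval of the ESX1 against NC log2 fold change lay above 0 in 4, with 0.22 to 0.82 for COX6A1, 0.08 to 0.64 for NDUFB4, 0.06 to 0.62 for NDUFA4 and 0.04 to 0.64 for COX7B. Of these 4 only COX6A1 passed after adjustment, the adjusted p being 0.162 for NDUFB4, 0.185 for NDUFA4 and 0.23 for COX7B. The interval included 0 in the other 6, with -0.39 to 0.10 for UQCRH, -0.16 to 0.38 for COX7C, -0.23 to 0.69 for ATP5J2, -0.09 to 0.91 for ATP5I, -0.23 to 0.50 for COX7A2 and -0.20 to 0.68 for NDUFB8. These 10 were chosen for low NC values, and NC is also the reference here, so the choice alone can raise these fold changes. Across all 75 members, 5 were higher and 3 lower in ESX1 than in NC at an unadjusted p below 0.05.

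ESX1 against WT sets the cells with ESX1-directed guides beside unmodified cells. It shares the WT samples with NC against WT, so the results are not independent. Of the 75 members 43 were lower and 0 higher, where 15.8% of all genes were lower and 12.9% higher, and 4 were lower by at least 2-fold (UQCRH, UQCRHL, COX7C and ATP5J2) against 4.77% of all genes, a share close to that of the members. At an unadjusted p below 0.05, 1 member was higher, and DESeq2 called 0 higher. The median log2 fold change was -0.55 over members and 0.01 over all genes. By complex, 16 of 37, 7 of 9, 8 of 12 and 12 of 17 members were lower in complexes I, III, IV and V, with medians of -0.35, -0.80, -0.59 and -0.58. Among genes with at least 10 CPM, 24.7% of all genes and 59.2% of members were lower. Every ESX1 sample lay below every WT sample in 51 of the 75 members and in 3939 of all 18452 genes. Without ESX1 replicate 3, 34 members were lower and the median was -0.41. Per sample, the median over members relative to WT was -0.49, -0.42 and -0.76 in ESX1 replicates 1 to 3 and -0.53, -0.62 and -0.55 in NC, so the shallowest library was the lowest and the other 2 ESX1 samples lay above the 3 NC samples.

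Many members have short transcripts. The median length of the canonical transcript was 757 bases for 74 members with one and 2745 bases over all tested genes. Of 36 members under 750 bases, 25 (69.4%) were lower in NC, while of all 2072 tested genes under 750 bases 10.8% were lower. Of 13 members with 2500 bases or more, 6 (46.2%) were lower, against 10.1% of all 9743 genes of that length. Across the 74 members, length and log2 fold change in NC against WT had a Spearman rho of 0.30, given as a description since genes are not independent replicates. With per-sample offsets for transcript length and GC content, an alternative chosen after seeing the data, 46 members were lower in NC and 42 in ESX1, with medians of -0.52 and -0.49.

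Nuclear genes of the chain whose symbols fall outside the rule were examined as a list of 10, namely 8 subunits of a complex, the mobile electron carrier cytochrome c (CYCS) and the ATP synthase inhibitor ATPIF1. Of the 8 subunits, 5 were lower in NC than in WT and 6 in ESX1 than in WT, with 0 higher, where 10.3% and 15.8% of all genes were lower. CYCS and ATPIF1 were lower in both. In NC the call of CYCS was lost without NC replicate 1 or 3 or WT replicate 2 (with adjusted p from 0.0506 to 0.14) and that of ATPIF1 without NC replicate 1 or 2 or WT replicate 2 or 3 (with adjusted p from 0.0551 to 0.098), and in ESX1 the call of CYCS was lost without ESX1 replicate 1 or WT replicate 2 (with adjusted p from 0.0682 to 0.085). NDUFAB1, the acyl carrier subunit of complex I, was at 183, 207 and 213 CPM in WT, 121, 113 and 104 in NC and 119.9, 124 and 92.4 in ESX1 (NC against WT -0.84 ± 0.13 SE, adjusted p = 2.87e-04). USMG5 and C14orf2, small membrane subunits of complex V, were lower in NC, with log2 fold changes of -1.04 ± 0.18 (SE, adjusted p = 8.49e-04) and -0.72 ± 0.13 (SE, adjusted p = 0.00118). SDHD, the membrane anchor of complex II, was at 26.4, 24.8 and 22.1 CPM in WT, 8.09, 13.7 and 13.5 in NC and 12.6, 15.9 and 13.7 in ESX1 (NC against WT -1.05 ± 0.20 SE, adjusted p = 0.00189, and ESX1 against WT -0.80 ± 0.20 SE, adjusted p = 0.00683). These 4 genes were each lower in every NC sample than in every WT sample.

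Of 12 tested protein-coding genes of mitochondrial DNA, 5 were lower in NC than in WT and 3 in ESX1 than in WT, and 0 were higher in any comparison. Among all tested genes, 10.3% were lower in NC and 15.8% in ESX1 than in WT. MT-CO3, a complex IV subunit, was at 912, 1025 and 903 CPM in WT, 405, 417 and 463 in NC and 432, 477 and 514 in ESX1 (NC against WT -1.14 ± 0.10 SE, adjusted p = 4.25e-06, and ESX1 against WT -0.997 ± 0.10 SE, adjusted p = 2.32e-06). MT-CO1, the catalytic subunit, was at 2934, 2667 and 2854 CPM in WT, 1923, 1894 and 1949 in NC and 2119, 2103 and 2137 in ESX1 (NC against WT -0.55 ± 0.08 SE, adjusted p = 1.42e-04, and ESX1 against WT -0.41 ± 0.08 SE, adjusted p = 6.44e-04). MT-ND3 was lower in NC (-1.68 ± 0.38 SE, adjusted p = 0.00597) and in ESX1 (-1.29 ± 0.38 SE, adjusted p = 0.0176), the second call being lost without ESX1 replicate 1 or 2 or WT replicate 2 (with adjusted p from 0.0522 to 0.0949). All 12 genes had a fold change above 0 in ESX1 against NC (median 0.31), with 0 past the threshold, 2 at an unadjusted p below 0.05 and 0 by DESeq2. MT-ND4L passed as higher there without NC replicate 1 (adjusted p = 0.0459) and MT-ND1 without ESX1 replicate 2 (adjusted p = 0.0368). The count lower in NC than in WT was 3 without WT replicate 1 or NC replicate 2 or 3, and that lower in ESX1 than in WT was 5 without ESX1 replicate 3, while 2 genes were higher in ESX1 than in WT without WT replicate 1. The share of all counts on the mitochondrial genome was 17.0% to 18.3% in WT, 14.5% to 15.3% in NC and 19.2% to 19.9% in ESX1, and its part in the results was not tested. That share covers every gene on the mitochondrial genome, and the 12 tested genes hold only a small part of it. Their summed level averaged 5341 CPM in WT, 3530 in NC and 4033 in ESX1, or 66.1% of WT in NC and 75.5% in ESX1.

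Assembly factors and the enzymes that feed the chain were described from lists chosen for this purpose. Of 48 assembly factors tested, 5 were lower and 1, COX19, a copper chaperone, was higher in NC than in WT (COX19 0.40 ± 0.13 SE, adjusted p = 0.0399 and named after its values were seen), with a median of -0.18. The lower share of 10.4% is close to the 10.3% of all genes, and the count fell to 1 without NC replicate 3 or WT replicate 2, to 2 without NC replicate 1 or 2, and to 3 without WT replicate 3. The call of COX19 was lost without NC replicate 1, 2 or 3 or WT replicate 1, 2 or 3 (with adjusted p from 0.0598 to 0.145). COA4, a factor of complex IV assembly, was lower in NC (-0.63 ± 0.14 SE, adjusted p = 0.00618) and in ESX1 (-0.69 ± 0.15 SE, adjusted p = 0.002). ATPAF1, a chaperone of the F1 beta subunit, was lower in NC (-0.51 ± 0.12 SE, adjusted p = 0.00982, lost without NC replicate 3 or WT replicate 2 with adjusted p from 0.0522 to 0.058). Of 14 enzymes of the tricarboxylic acid cycle, 2 were lower in NC and 3 in ESX1 than in WT, with medians of -0.14 and -0.13. These shares of 14.3% and 21.4% are near the 10.3% and 15.8% of all genes, and the count in NC was 0 without NC replicate 1 or WT replicate 2 or 3 and 1 without NC replicate 2 or 3 or ESX1 replicate 3. SUCLA2, a subunit of succinyl-CoA synthetase, was at 213, 241 and 251 CPM in WT, 161, 178 and 177 in NC and 106, 126 and 102 in ESX1. It was the list's 1 gene lower in ESX1 than in NC (-0.62 ± 0.12 SE, adjusted p = 0.00432), and against WT it was at -0.45 ± 0.12 (SE, adjusted p = 0.0124) in NC, lost without NC replicate 1 or WT replicate 2 or 3 (with adjusted p from 0.0513 to 0.0761), and at -1.07 ± 0.12 (SE, adjusted p = 3.85e-06) in ESX1.

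Among 14 known regulators of these genes, PPARGC1A, the coactivator PGC-1alpha, was higher in NC than in WT, at 3.82, 4.23 and 1.57 CPM in WT, 15.1, 16.0 and 15.0 in NC and 21.9, 25.3 and 22.9 in ESX1 (NC against WT 2.29 ± 0.26 SE, adjusted p = 2.77e-05, and ESX1 against WT 2.89 ± 0.26 SE, adjusted p = 5.35e-07). The other 5 that passed in NC were lower, where 10.3% of all genes were lower. This count of 5 was 3 without WT replicate 2 or 3 and 2 without NC replicate 3. TFAM, which packages and transcribes mitochondrial DNA, was at 86.0, 119.5 and 111 CPM in WT, 48.7, 68.5 and 64.0 in NC and 57.7, 77.1 and 65.8 in ESX1 (NC against WT -0.80 ± 0.15 SE, adjusted p = 0.0018, and ESX1 against WT -0.66 ± 0.15 SE, adjusted p = 0.00387). GABPB1, the partner subunit of GABPA, was at 71.0, 71.0 and 67.3 CPM in WT, 40.0, 48.8 and 45.1 in NC and 46.0, 47.1 and 44.1 in ESX1 (NC against WT -0.64 ± 0.12 SE, adjusted p = 0.00129, and ESX1 against WT -0.61 ± 0.12 SE, adjusted p = 9.96e-04). ESRRG, an orphan nuclear receptor, was lower in NC (-1.34 ± 0.32 SE, adjusted p = 0.00837, lost without NC replicate 3 with adjusted p = 0.0523) and in ESX1 (-2.52 ± 0.36 SE, adjusted p = 6.71e-05). TFB2M, a mitochondrial transcription factor, was the 1 regulator higher in ESX1 than in NC (0.56 ± 0.15 SE, adjusted p = 0.0447), a call lost without ESX1 replicate 2 or 3, NC replicate 2 or 3 or WT replicate 2 (with adjusted p from 0.0563 to 0.235). YY1 was the remaining lower regulator in NC (-0.45 ± 0.12 SE, adjusted p = 0.0138). By the counts above, its call was lost at least without WT replicate 2 or 3 or NC replicate 3. TFB2M was lower in NC too (-0.47 ± 0.15 SE, adjusted p = 0.0437, lost without ESX1 replicate 3, NC replicate 2 or 3 or WT replicate 1, 2 or 3 with adjusted p from 0.0514 to 0.211).

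Cytosolic ribosomal protein genes, which build the ribosome of the cytosol, were lower in the same comparisons. They had 63 of 82 lower in NC than in WT (median -0.64) and 63 of 82 lower in ESX1 than in WT (median -0.46), and 4 higher and 0 lower in ESX1 than in NC. The 4 higher genes became 1 without NC replicate 3 and 2 without NC replicate 1 or 2. Of all tested genes, 10.3% were lower in NC and 15.8% in ESX1 than in WT. In ESX1 against NC, 1.88% of all genes were higher and 2.37% lower. Pseudogenes share sequence with single members, and the 148 listed pseudogenes of members held 0.690% as many counts as the members themselves, the largest shares being 13.0% for NDUFA5, 8.05% for NDUFB4 and 6.88% for COX6A1.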

How the data were processed

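Total RNA from 9 cultures (3 WT, 3 NC, 3 ESX1) was sequenced by the study after ribosomal RNA removal with a stranded paired-end kit. The authors aligned reads with HISAT2 (version 2.0.5) to GRCh38 and deposited raw counts per gene from featureCounts, for which the header gives version 1.5.2 with GENCODE 26 and the processing notes version 1.6.5. No strand option is set in that header, so reads of overlapping genes on either strand compete. The authors also deposited log2 values normalized with DESeq2, whose exact transformation is not given in the sources used here. Samples were grouped by their labels. Counts were filtered (filterByExpr), scaled by TMM and tested with the edgeR quasi-likelihood test (edgeR 4.0.16 in R 4.3.3) on all 9 samples, with Benjamini-Hochberg adjustment over 18452 genes and a threshold of 0.05. The scripts were tested on simulated data. Standard errors were derived from the fitted coefficient and its F statistic, and values after ± without SE are SDs over 3 samples. CPM are TMM-normalized, and total counts of 5212804 to 10644408 set their precision. Genes were named where they were lower or higher by at least 2-fold, among the largest falls of their complex, called in ESX1 against NC, highest per kilobase in their complex, paralogues or untested members, or called in a fixed list. Named after their values were seen were NDUFS1, NDUFS8, NDUFV1, NDUFV3, UQCRC2, UQCRFS1, COX5A, ATP5A1, ATP5C1, ATP5D, ATP5E, COX19, COL1A1, SOX2, SOX9, CYCS, ATPIF1 and YY1. The members and lists were chosen with earlier results of these data known. The NC labels do not state the dCas9-VPR vector. Alternatives covered other scalings, filters, DESeq2 (1.42.0), limma (3.58.1) on the deposited log2 values, a replicate block, the 6 samples compared, leaving out each library and, added after seeing the data, offsets for transcript length and GC content.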

Additional observations from a re-analysis of the deposited data

How the results depend on the processing

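The lower calls against WT kept their direction in all alternatives run. Members lower in NC than in WT numbered 35 to 46 over the alternative analyses and 36 to 45 with 1 library left out, and those lower in ESX1 than in WT 38 to 45 and 34 to 47, against 43 in each. With a 2-fold minimum, 10 members were lower in NC and 4 in ESX1 than in WT, and 0 were higher and 0 lower in ESX1 than in NC. Counts near 0 moved by a gene or so. One member (ATP5D) was higher in NC than in WT (1 against 0) with upper-quartile factors, with total counts only, with at least 1 count in all samples together, with at least 10 counts in every sample, with only the 6 samples compared and with length and GC offsets, and it was also higher in ESX1 than in WT (1 against 0) with upper-quartile factors and with the offsets. With total counts only, 2 members were higher in ESX1 than in WT (ATP5D and NDUFV3), the medians were -0.41 in NC and -0.41 in ESX1 against WT, and the median of all genes shifted by 0.21 and 0.15, so that relative to it the members stood at -0.62 and -0.56. In ESX1 against NC, 2 members were lower (UQCRC1 and NDUFV1) with total counts only, with DESeq2 and with at least 1 count in all samples, and 0 were higher with total counts only, with the 6 samples and with limma. Leaving out 1 library gave 0 to 1 members higher and 0 to 2 lower in ESX1 against NC, 0 to 1 higher in NC against WT, 0 to 1 higher in ESX1 against WT, and a median in ESX1 against WT from -0.60 to -0.41, the last without ESX1 replicate 3. The causes were not tested. Of the values for single named genes under the alternatives, 3908 kept their direction and side of the threshold, 163 lost and 48 gained a call, and 0 reversed. The labels do not say what the replicate number marks, and whether it marks a shared batch was not tested. Samples with the same number had correlations of deviations from -0.03 to 0.19, with 0.19, 0.09 and 0.02 between ESX1 and NC. A paired analysis with the replicate block gave 2 members lower in ESX1 than in NC (UQCRC1 and NDUFV1). It moved no other count of members by more than 1.5 times. Under the block COX7A2L and SDHB also passed as lower in ESX1 than in WT (log2 -0.27, adjusted p = 0.0486, and -0.32, adjusted p = 0.0444), FH passed there too (-0.27, adjusted p = 0.0445), and MT-ND4L passed as higher in ESX1 than in NC (0.61, adjusted p = 0.0419). With at least 1 count in all samples together, MT-ND1 and MT-ND4L were higher in ESX1 than in NC (adjusted p = 0.00264 and 0.00512). With 3 samples a group, an exact permutation test of 1 gene cannot go below p = 0.1, and small differences in ESX1 against NC may be below what this depth shows.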
